A study of Homo sapiens with 6 samples.

Results

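Accessible chromatin was described at 10 genes that set the threshold for cell death: the anti-apoptotic BCL2, BCL2L1, MCL1 and BCL2A1, the pro-apoptotic BCL2L11, PMAIP1 and BAK1, and the inhibitors of apoptosis BIRC2, BIRC3 and BIRC5. They are 10 of the 59679 genes of the RefSeq table. The genes were chosen by name, and a peak was assigned to one when it overlapped the GRCh38 span of the gene extended by 10 kb on either side, here called the window. The peaks of all libraries, merged wherever they overlapped by at least 1 bp, gave 507440 regions, of which 153 lay in the 10 windows. The 10 windows together cover 583.8 kb, counting shared sequence once.

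The assay was ATAC-seq, in which a transposase cuts open DNA, and the cells were NCI-H1703, an established human lung squamous cell carcinoma line. In 3 libraries the long non-coding RNA DLGAP1-AS2 had been silenced (titles beginning ASO), and 3 libraries were controls (titles beginning NC). No genotype or treatment other than the silencing, and no time after it, is given in the labels, and all 6 libraries come from that single line. Nothing in the labels says that replicates were separate cultures, so the p-values measure only the spread between these libraries, which may be technical.

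Proteins of the BCL2 family meet at the outer mitochondrial membrane. The effectors BAK1 and BAX open pores in it, the anti-apoptotic members hold them in check, and the BH3-only proteins, named after the short domain they share, relieve that check. Cytochrome c released through the pores starts the caspase cascade, and the inhibitors of apoptosis (the BIRC proteins) act on caspases and on the signalling complexes below death receptors. Amplification or high expression of anti-apoptotic members is a known feature of many carcinomas, lung cancers among them.

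Of the 10 genes, 8 have an annotated start in the RefSeq promoter table (GRCh38.p14). The 250 bases before the start are shown for 4 of them because these 4 span the range of peak levels described further on, from BAK1 (the highest of the 10) through BIRC3 and PMAIP1 to BCL2A1 (the lowest). Each is written 5′ to 3′ on the strand of the gene and ends just before the start. Capitals mark matches on either strand to 3 motifs: the GC box GGGCGG, the CCAAT box, and the 10-base consensus of NF-kB.
BAK1 (chr6:33580277-33580526, minus strand): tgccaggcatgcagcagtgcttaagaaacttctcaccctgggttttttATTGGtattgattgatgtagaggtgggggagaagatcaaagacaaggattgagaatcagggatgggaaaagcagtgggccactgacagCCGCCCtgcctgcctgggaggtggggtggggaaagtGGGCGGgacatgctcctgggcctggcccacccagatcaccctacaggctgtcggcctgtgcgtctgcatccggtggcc
PMAIP1 (chr18:59899746-59899995, plus strand): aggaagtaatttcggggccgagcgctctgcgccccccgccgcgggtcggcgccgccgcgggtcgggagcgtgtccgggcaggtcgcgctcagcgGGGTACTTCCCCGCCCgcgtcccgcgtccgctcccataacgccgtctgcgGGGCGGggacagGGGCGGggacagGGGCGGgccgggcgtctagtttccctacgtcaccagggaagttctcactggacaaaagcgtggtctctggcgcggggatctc
BIRC3 (chr11:102317234-102317483, plus strand): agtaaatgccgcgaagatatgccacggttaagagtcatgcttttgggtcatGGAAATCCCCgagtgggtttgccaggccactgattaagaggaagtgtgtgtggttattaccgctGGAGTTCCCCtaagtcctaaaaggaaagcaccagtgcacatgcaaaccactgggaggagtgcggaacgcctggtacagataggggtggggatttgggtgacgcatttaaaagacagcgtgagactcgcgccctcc
BCL2A1 (chr15:79971197-79971446, minus strand): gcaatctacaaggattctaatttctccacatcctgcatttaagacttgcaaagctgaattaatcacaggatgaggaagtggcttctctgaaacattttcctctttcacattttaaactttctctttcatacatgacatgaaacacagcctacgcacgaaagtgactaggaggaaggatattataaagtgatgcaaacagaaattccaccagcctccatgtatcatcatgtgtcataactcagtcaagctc

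Base composition differed widely among these windows. The BCL2A1 window held 38.8% G or C and 2 CpG dinucleotides, the BIRC3 window 52.4% and 11, the BAK1 window 58.0% and 5, and the PMAIP1 window 72.8% and 36. Over the 35116 promoters of the table the medians were 58.0% and 11 CpG. The richest window among the members was that of BCL2L11, with 76.8% G or C and 34 CpG. BAK1, with the highest peak level, therefore had fewer CpG than the median promoter, and the order of base composition was not the order of accessibility.

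In the BIRC3 window the 2 NF-kB matches, GGAAATCCCC and GGAGTTCCCC, ended 190 and 126 bases before the start, and no other motif searched was found there. BIRC3 is a textbook target of NF-kB signalling. In the PMAIP1 window 1 NF-kB match was joined end to end to a GC box, and 3 further GC boxes followed between 106 and 77 bases before the start. The BAK1 window held 2 GC boxes and 1 CCAAT box, and the BCL2A1 window held none. Over all 10 windows of the 8 genes (BIRC2 and BCL2L1 have 2 starts each, and the BIRC2 windows share 90 bases), the GC box was found in 4 windows, CCAAT in 2 and the NF-kB consensus in 7. The shares of all promoters holding them were 42.6%, 32.0% and 28.9%. Counted by gene, these motifs were found at 4, 2 and 6 of the 8 genes. The shares were not matched for base composition, so they do not show whether a motif is more frequent at these genes than at promoters of like composition. The 2 NF-kB matches counted in the BCL2L11 window overlap each other. The BCL2 window (63319770 to 63320019), taken from the listed start, lies inside the gene span, which runs to 63320090. The TEAD core GGAATG, the AP-1 site TGANTCA and the cell cycle element CHR (TTTGAA) were found in 0 of the 10 windows, against 11.9%, 6.57% and 13.3% of all promoters. Absence of these letters from 250 bases describes those bases only. MCL1 and BIRC5 have no start in the promoter table, so no motif was searched at either gene.

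Each library came as its own list of 91346 to 170882 peaks, with the authors' height (pileup) and fold enrichment over local background for each peak. The number of reads is not given, so depth was read from the background coverage implied by the lists. It ranged from 0.369 to 0.464 in 5 libraries and was 0.237 in the remaining one, silenced replicate 3. The height of that library was the single lowest at 70.1% of the 37284 regions called in all 6 libraries. Control replicate 2 had the shortest list and a lowest height of 3, where the other libraries reached down to 2. Gene-start peaks gave the squamous label little support. Of 6 squamous markers only SOX2 had one in all 6 libraries, at heights of 10 to 22. KRT5 and KRT6A had none, and TP63, KRT14 and DSG3 had one in a single control library each. Of the 4 adenocarcinoma and alveolar markers 3 had one in all 6 libraries. Heights were 16 to 36 at NKX2-1, but only 5 to 12 at NAPSA and 5 to 11 at SFTPC, where either span end was used. SFTPB had one in silenced replicates 1 and 2 only. All 3 mesenchymal markers had one in all 6 libraries, with FN1 as low as 3. None of the 3 blood cell markers did, PTPRC among them having no peak.

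A gene-start peak, meaning a peak within 1 kb of the annotated start, was called for all 10 genes in all 6 libraries. For MCL1 and BIRC5 either end of the span was used. The same was true of 60.2% of 20037 protein-coding genes. The numbers per library were 10 in each group throughout (exact permutation test, two-sided, p = 1). With only peaks at an FDR of at most 1e-05 kept, the mean was 9.33 genes in silenced and 9.67 in control libraries, because the low BCL2A1 peak dropped out of 3 libraries: silenced replicates 1 and 2 and control replicate 1.

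**Figure D1:**
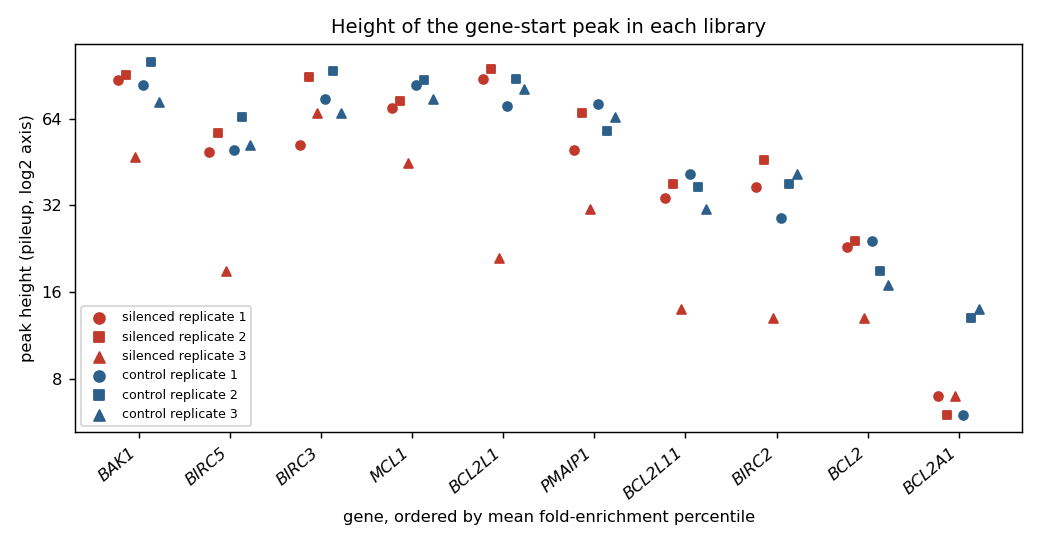
Height of the gene-start peak (pileup, log2 axis) of each gene in each of the 6 libraries, with silenced libraries in red, control libraries in blue and 1 symbol per replicate. Silenced replicate 3 gave the lowest height for 8 of the 10 genes, and BCL2A1 stayed between 6 and 14.

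To compare genes with each other, the fold enrichment of each gene-start region was placed among the 37284 regions called in all 6 libraries, as a percentile within each library. The mean percentile over 6 libraries ran from 97.1 ± 1.17 (SD, n = 6) at BAK1 to 34.8 ± 19.0 at BCL2A1, with a median of 83.3 over the 10 genes. Between these lay BIRC5 at 91.1 ± 6.41, BIRC3 at 88.7 ± 5.95, MCL1 at 85.4 ± 3.38, BCL2L1 at 84.9 ± 6.87 and PMAIP1 at 81.7 ± 5.62. A gap followed, and BCL2L11 stood at 55.4 ± 6.21, BIRC2 at 54.2 ± 12.0 and BCL2 at 43.7 ± 12.1. The gap between PMAIP1 and BCL2L11 was 26.3 ± 6.71 percentile points and present in 6 of 6 libraries. BAK1 stood above BIRC5 by 6.03 ± 5.98 points, in 5 of 6 libraries, and every other pair of neighbours in the order differed by less than the SD of the difference. By fold rank, neither the protective nor the killing side of the family was uniformly more open. BAK1 and BCL2A1 stood at the ends, and MCL1, BCL2L1 and PMAIP1 lay side by side. The order depends on the measure. By mean height among the same shared regions, PMAIP1 stood at percentile 91.1, BIRC5 at 88.0, BIRC2 at 78.8 and BCL2L11 at 77.5. BCL2 stood at 59.7 and BCL2A1 at 21.4, so the step after PMAIP1 was less marked by height.

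**Figure D2:**
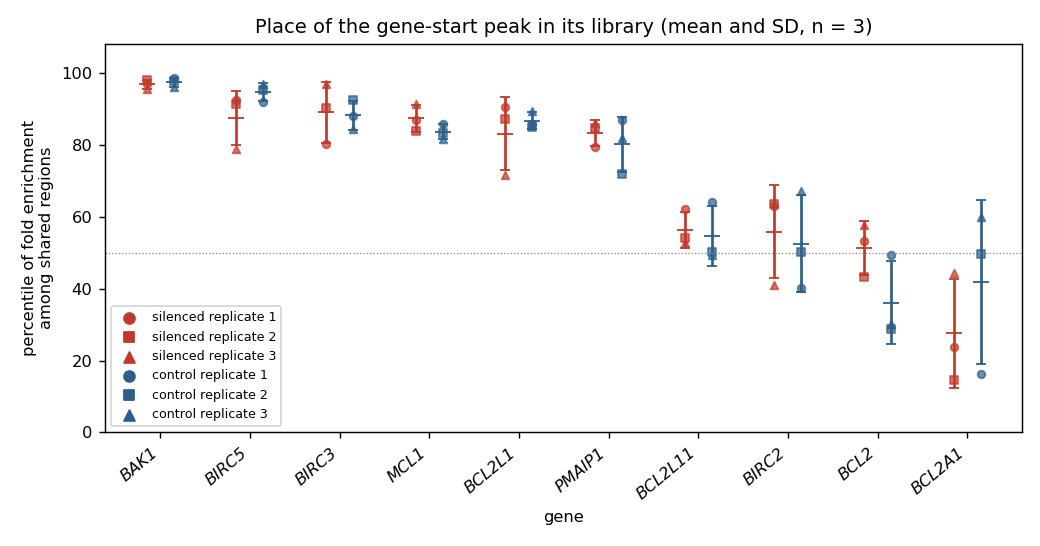
Percentile of the fold enrichment of each gene-start region among the 37284 regions called in all 6 libraries, by library, with the mean and SD of each group (n = 3). A step separates 6 genes above a mean of 80 from 4 genes below a mean of 60, and the groups overlap for each gene.

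BCL2, the founding anti-apoptotic protein, lies on chromosome 18 from 63123346 to 63320090. Its start region (63319600 to 63320810) had heights of 23, 24 and 13 in silenced and 24, 19 and 17 in control replicates 1 to 3. Fold enrichments were 8.11, 7.53 and 7.07 in silenced libraries against 8.01, 6.17 and 6.25 in controls. The groups overlapped in both measures. The tall peak did not sit on the start listed in the promoter table, 63319769. Its near edge lay 266 to 286 bases upstream of that start in 5 libraries and 42 bases upstream in control replicate 3. In every library the tall peak covered 63320090, the end of the span from which this minus-strand gene is read. A separate low peak covered the listed start itself in 3 libraries. Its heights were 9 in silenced replicate 1, 5 in silenced replicate 3 and 7 in control replicate 2.

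The fold percentile of the BCL2 start was 51.4 ± 7.48 in silenced and 36.1 ± 11.6 in control libraries (SD, n = 3). On the scale of the test, which converts ranks within a library to normal scores, the difference was 0.40 (SE 0.309, 95% interval −0.25 to 1.05) and did not pass limma's test (adjusted p = 0.965). The BCL2 window, at 216.7 kb the widest of the 10, held 59 regions, of which 51 were called in 1 library and 5 in all 6. The tallest of these 5 outside the start lay 163.8 kb downstream (63155252 to 63155939), inside the gene, with heights of 19, 15 and 9 in silenced and 16, 15 and 19 in control libraries. Its rank score differed by −0.04 between groups.

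A region 3.1 kb upstream of the BCL2 start (63322899 to 63323332), overlapping no annotated gene, is named because of its values. Heights were 11, 24 and 9 in silenced and 11, 13 and 11 in control replicates 1 to 3, and fold enrichments were 4.2, 7.5 and 5.1 against 3.9, 4.3 and 3.9. The fold ranked higher in every silenced than in every control library, which held for 1 of the 24 member regions called in all 6 libraries and for 5.39% of all such regions. The score difference was 0.85 (SE 0.426, 95% interval −0.05 to 1.74, unadjusted p = 0.0623, limma adjusted p = 0.963). Silenced replicate 2 carried the largest fold, and without it the difference was 0.61.

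BCL2L1 encodes BCL-XL, the family's main long-lived guardian in many epithelial cells, and spans 31664452 to 31723963 on chromosome 20. The promoter table lists 2 starts 1095 bases apart, both inside 1 region (31722756 to 31724207), and the upstream start carried the taller peak. Its heights were 88, 95 and 21 in silenced replicates 1 to 3 and 88 and 81 in control replicates 2 and 3. The downstream start had heights of 26, 41 and 14 in silenced and 36 and 27 in the same control libraries. In control replicate 1 a single peak of height 71 ran over both starts. The upstream peak was thus taller in each of the 5 libraries that separated them, and silenced replicate 3 was lowest at both starts.

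Fold enrichments of the BCL2L1 start region were 15.7, 15.0 and 8.73 in silenced and 14.1, 14.1 and 15.5 in control libraries, and the percentiles were 83.0 ± 10.1 and 86.7 ± 2.38 (SD, n = 3). The score difference of −0.11 (SE 0.222) did not pass the test (limma adjusted p = 0.976), and without silenced replicate 3 it was 0.10. Of 17 regions in the window 3 were called in all 6 libraries. The tallest outside the start lay 60.3 kb downstream (31661417 to 31662520), past the end of the gene, with heights of 25, 39 and 14 in silenced and 28, 48 and 40 in control libraries and a score difference of −0.36 (95% interval −0.86 to 0.14).

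MCL1, a short-lived anti-apoptotic protein, lies from 150574558 to 150579610 on chromosome 1. The region at the upper end of the span (150578629 to 150580049) had heights of 70, 74 and 45 in silenced and 84, 87 and 75 in control replicates 1 to 3. Every silenced height was below every control height, the only gene of the 10 for which the groups did not overlap. That order of heights was present at 8.79% of all regions called in all 6 libraries, and the opposite order at 0.161%. Fold enrichments, which the authors express against local background, were 14.4, 14.0 and 13.7 in silenced and 14.1, 13.7 and 13.2 in control libraries and overlapped. The score difference was 0.18 (SE 0.200, limma adjusted p = 0.966).

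A second tall region of the MCL1 window lay 5.6 kb beyond the lower end of the span (150568190 to 150568965), within ADAMTSL4-AS1. Heights there were 49, 39 and 26 in silenced and 38, 39 and 51 in control libraries, while fold enrichments were only 3.3 to 4.5. The region was at percentile 83.6 of all shared regions by mean height and 3.58 by mean fold, because the local background used by the authors averaged 9.35 there against a median of 1.06. The score difference was 0.44 (unadjusted p = 0.376, limma adjusted p = 0.966), and it ranged from 0.07 without control replicate 2 to 0.74 without silenced replicate 2.

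BCL2A1, an anti-apoptotic gene best known in blood cells, lies from 79960892 to 79971196 on chromosome 15 and had the lowest start peak of the 10. Heights at the start (79971020 to 79971400) were 7, 6 and 7 in silenced and 6, 13 and 14 in control replicates 1 to 3. Fold enrichments were 5.33, 4.79 and 5.88 against 4.93, 8.24 and 9.38. Control replicates 2 and 3 stood above the other 4 libraries, and control replicate 1 lay among the silenced ones. The score difference was −0.39 (SE 0.395, limma unadjusted p = 0.335, adjusted p = 0.965), and it ranged from −0.74 without control replicate 1 to −0.14 without control replicate 3. Of the 5 regions of this window only the start region was called in all 6 libraries. The promoter of BCL2A1 is also the one of the 4 printed that held no motif searched.

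Among the BH3-only genes, BCL2L11 encodes BIM, which binds all the anti-apoptotic members, and PMAIP1 encodes NOXA, which mainly antagonises MCL1. At the BCL2L11 start (chromosome 2, 111120198 to 111121077, gene span 111120914 to 111168445) heights were 34, 38 and 14 in silenced and 41, 37 and 31 in control replicates 1 to 3. Fold enrichments were 9.21, 8.74 and 6.58 against 9.81, 8.30 and 8.12. The groups overlapped, with silenced replicate 3 lowest, and the score difference was 0.04 (SE 0.264, limma adjusted p = 0.993). The tallest shared region outside the start, 1.4 kb downstream (111122332 to 111122743), had heights of 16, 21 and 6 in silenced and 19, 26 and 17 in control libraries and a score difference of −0.32.

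At the PMAIP1 start (chromosome 18, 59899366 to 59900664, gene span 59899996 to 59904305) heights were 50, 67 and 31 in silenced and 72, 58 and 65 in control replicates 1 to 3. Fold enrichments were 12.3, 14.2 and 11.9 against 14.4, 11.2 and 13.3. Both measures overlapped between groups, and the score difference was 0.10 (SE 0.215, limma adjusted p = 0.977). A region 4.8 kb downstream (59904768 to 59905328), the only other one of the window called in all 6 libraries, had heights of 14, 11 and 6 in silenced and 11, 19 and 22 in control libraries. The heights overlapped between groups, and the score difference was 0.16.

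BAK1, the pore-forming effector, spans 33572552 to 33580276 on chromosome 6 and had the most enriched start of the 10. Heights (33579885 to 33580688) were 87, 91 and 47 in silenced and 84, 101 and 73 in control replicates 1 to 3. Fold enrichments were 19.1, 20.8 and 16.3 against 20.6, 20.1 and 18.6. The groups overlapped, the score difference was −0.09 (SE 0.199, 95% interval −0.51 to 0.32), and the test was not passed (limma adjusted p = 0.977). Of the 6 regions in the BAK1 window 4 were called in all 6 libraries. The tallest outside the start lay 8.6 kb downstream (33570798 to 33571714), beyond the end of the gene, with heights of 39, 43 and 20 in silenced and 38, 56 and 59 in control libraries and a score difference of −0.15.

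The inhibitors of apoptosis BIRC3 (cIAP2) and BIRC2 (cIAP1), ubiquitin ligases that act on death receptor and NF-kB signalling, are neighbours on chromosome 11, at 102317484 to 102339403 and 102347214 to 102378670, and their windows overlap. The BIRC3 start (102317125 to 102317966) had heights of 52, 89 and 67 in silenced and 75, 94 and 67 in control replicates 1 to 3. Its fold enrichments were 12.4, 16.1 and 17.6 against 14.8, 16.7 and 13.9. Here silenced replicate 3, the library with the lowest background coverage, had the highest fold, and without it the score difference moved from 0.13 (SE 0.240, limma adjusted p = 0.974) to −0.13.

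The BIRC2 start (102346638 to 102347524) had heights of 37, 46 and 13 in silenced and 29, 38 and 41 in control replicates 1 to 3. Fold enrichments were 9.36, 10.0 and 5.65 against 7.14, 8.26 and 10.4. The groups overlapped, with silenced replicate 3 lowest, and the score difference was 0.08 (SE 0.289, limma adjusted p = 0.985). The 2 neighbouring genes thus had starts of different level, with mean percentiles of 88.7 and 54.2. Between them, 5.0 kb upstream of BIRC2 and 24.1 kb downstream of BIRC3, a region shared by both windows (102341601 to 102342186) had heights of 20, 29 and 14 in silenced and 25, 28 and 27 in control libraries and a score difference of −0.20.

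BIRC5 encodes survivin, which serves in chromosome segregation as well as in apoptosis control and is a marker of dividing cells. The region at the lower end of its span on chromosome 17 (78213887 to 78214602, span 78214253 to 78225635) had heights of 49, 57 and 19 in silenced and 50, 65 and 52 in control replicates 1 to 3. Fold enrichments were 16.4, 16.6 and 10.0 in silenced libraries (14.3 ± 3.76, SD, n = 3) and 16.2, 18.1 and 19.3 in controls (17.9 ± 1.56). Silenced replicate 3 stood far below the other 5 libraries, and the remaining values overlapped. The score difference was −0.45 (SE 0.217, 95% interval −0.90 to 0.01, unadjusted p = 0.053), the smallest p of the member regions, and the limma adjusted p was 0.963. Without silenced replicate 3 the difference was −0.24 (limma unadjusted p = 0.230). It was −0.56 without silenced replicate 1, −0.53 without silenced replicate 2 and −0.57 without control replicate 1, with limma unadjusted p = 0.0322, unadjusted p = 0.0421 and unadjusted p = 0.0324.

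**Figure D3:**
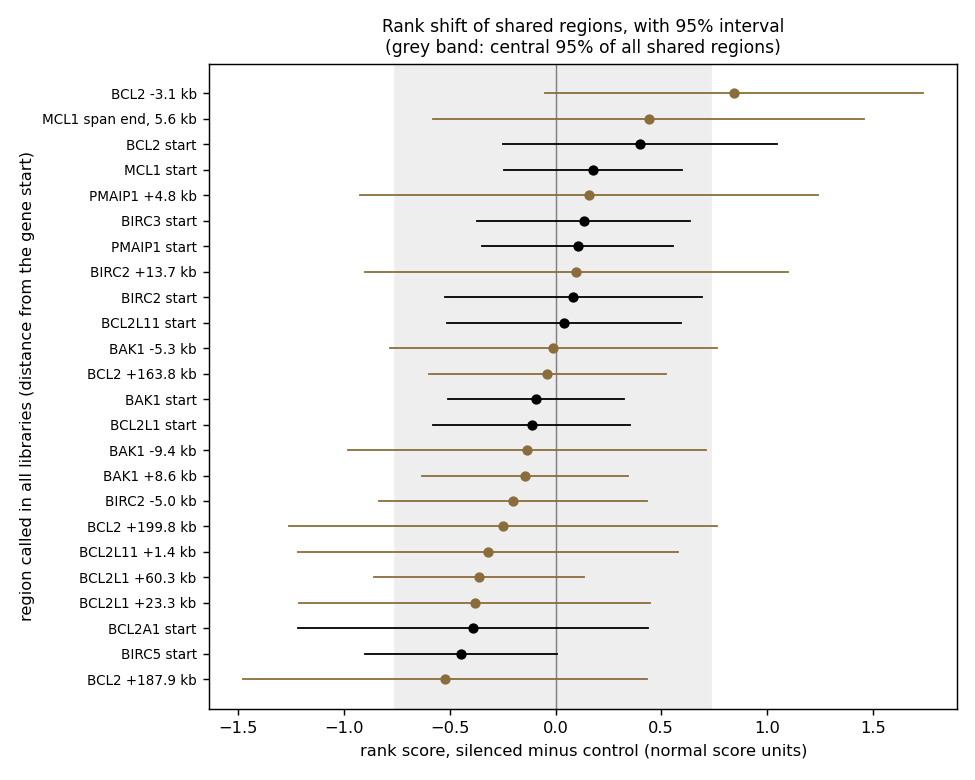
Difference in rank score of fold enrichment, silenced minus control, with its 95% interval, for the 24 member regions called in all 6 libraries (black, gene starts; brown, other regions labelled by distance from the start). All 24 intervals include 0, and the grey band is the central 95% of all shared regions, −0.76 to 0.74.

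Fitted over all 37284 regions called in all 6 libraries, limma called 0 of the 24 member regions at an adjusted p under 0.05, and 0% of all regions in either direction. At an unadjusted p under 0.05 it called 0 of the 24, against 4.68% of all regions (1.98% higher and 2.70% lower in silenced libraries). Leaving out 1 library brought 0 to 2 member regions under that value, namely the BIRC5 start in the 3 cases given for it and the region upstream of BCL2 without silenced replicate 1 (1.13, limma unadjusted p = 0.0226), and 0 of all regions passed after adjustment. Of the 24 score differences 10 were above 0 and 14 below, with a median of −0.07 against 0.01 for all regions and a range of −0.52 to 0.85. At the 10 gene starts 6 were above 0 and 4 below. No member region ranked lower in every silenced than in every control library (4.78% of all regions did). A miss of the threshold does not show that the groups were alike: the 95% interval at the most enriched start, BAK1, reached −0.51.

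The windows held 55, 60 and 56 peaks in silenced and 72, 58 and 56 in control replicates 1 to 3. The means were 57.0 ± 2.65 and 62.0 ± 8.72 (SD, n = 3), a difference of −5 peaks (exact permutation test, two-sided, p = 0.6, adjusted over 3 tests p = 0.9, smallest possible p 0.1). The groups overlapped, and without control replicate 1 the difference was 0. Peaks at an FDR of at most 1e-05 numbered 18, 21 and 20 in silenced and 22, 27 and 29 in control libraries, with no overlap and p = 0.1 by the same exact test. As a share of all such peaks of the library, these were 0.0537%, 0.0580% and 0.0817% against 0.0616%, 0.0723% and 0.0795%, which overlapped.

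**Figure D4:**
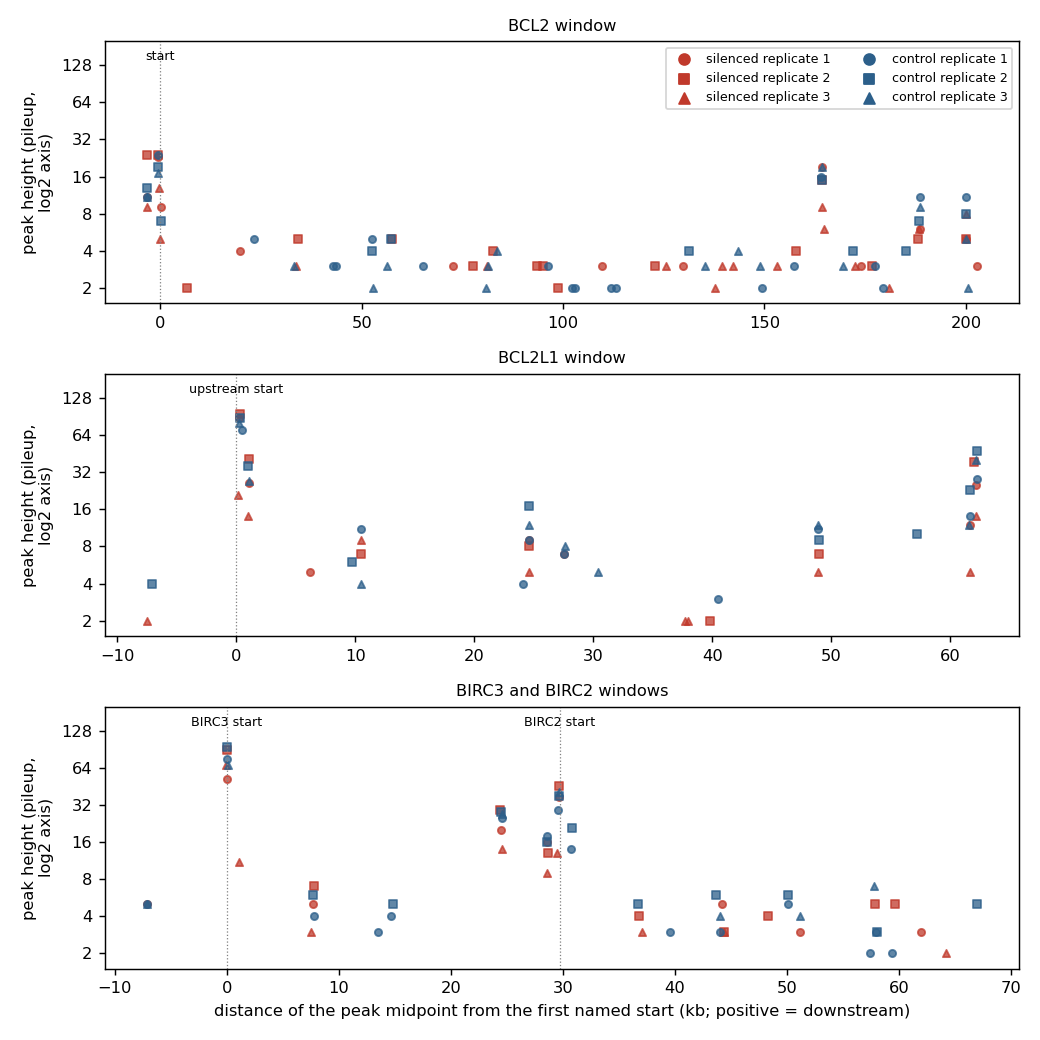
Height (log2 axis) and distance from the gene start (kb, positive is downstream) of every peak in the BCL2, BCL2L1 and joined BIRC3 and BIRC2 windows, with 1 symbol per library. Tall peaks shared by all 6 libraries cluster at the starts and at a few distant places, and most other peaks are low and seen in 1 library.

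Window by window, BAK1 had 4, 4 and 4 peaks in silenced and 5, 6 and 5 in control libraries, and BIRC5 had 4, 4 and 3 against 5, 6 and 5. These 2 of the 10 genes had fewer peaks in every silenced than in every control library, as did 1.42% of 20037 protein-coding genes, and 0 of the 10 had more (1.60%). The genes with that order changed with the filter on peaks. Among peaks at an FDR of at most 1e-05, BAK1 had 4, 4 and 4 against 4, 5 and 5 and BIRC5 1, 1 and 1 against 1, 1 and 3, so both overlapped, whereas BCL2L1, with 7, 7 and 10 against 9, 9 and 9 before the filter, had 3, 3 and 4 against 5, 5 and 5. At that filter 1 of the 10 genes had fewer peaks in every silenced library (1.89% of all genes) and 0 had more (0.110%). Among peaks of a height of at least 4, BAK1 kept 4, 4 and 4 against 5, 6 and 5, BCL2L1 had 7, 6 and 7 against 8, 9 and 9, and BIRC5 overlapped. There 2 of the 10 genes had fewer (3.35% of all genes) and 0 had more (0.484%). At BAK1, 4 regions were called in all 6 libraries and the remaining 2 in 1 library each. Every control library had more than 4 peaks, so the control counts include shared regions split into more than 1 peak. At BIRC5 the regions that differed were low. A region 450 bases past the upper end of the span (78226085 to 78226480) had no call in silenced replicates 2 and 3. Its heights were 11 in silenced replicate 1 and 8, 10 and 10 in the controls. The 2 regions within the neighbouring AFMID were missing in silenced replicate 3 alone. Silenced replicate 1 held all of these, and fell below the controls through regions called in a single control library. Their heights were 4 in control replicate 1, 3 and 7 in control replicate 2 and 9 in control replicate 3. Called in silenced libraries alone were a region of height 4 in replicate 3 and one of heights 6 and 4 in replicates 2 and 3.

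Of the 153 regions 24 were called in all 6 libraries, or 15.7%, against 7.35% of all 507440 regions, and 99 were called in 1 library, or 64.7%, against 74.1%. The windows were placed on genes, whereas all regions include intergenic ones. Of the 99, 66 had a height of 2 or 3, at the floor of the lists. The share called in 1 library ranged from 20.0% at BIRC3 to 86.4% at BCL2. Of the 8 regions called in 5 libraries, silenced replicate 3 lacked 4, and silenced replicate 1 and control replicate 3 lacked 2 each.

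**Figure D5:**
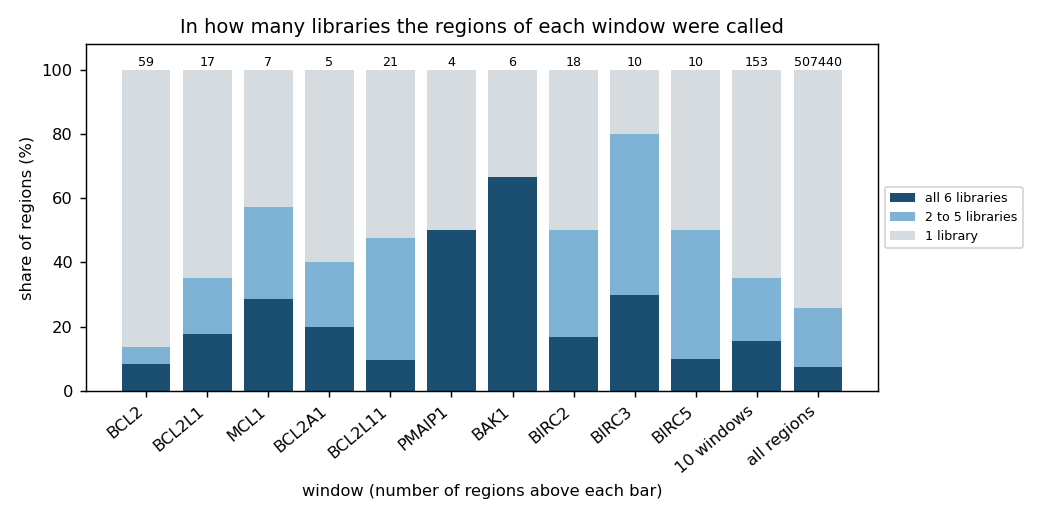
Share of the regions of each window (%) that were called in all 6, in 2 to 5 or in 1 library, with the number of regions above each bar. BCL2 has the largest share called in 1 library (51 of 59 regions), and BAK1 the largest share called in all 6 (4 of 6).

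No member region separated the groups, in the sense of a call in each of the 3 libraries of one and in no library of the second. Only 3 member regions were called in exactly 3 libraries, near BCL2L1, BCL2A1 and BIRC3, and each was called in libraries of both groups. Among 18476 such regions over the genome, 3.58% were called in all silenced and no control library and 5.50% in all control and no silenced library, so 0 of 3 carries little information.

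The wider death machinery was read from 28 further genes, listed by role. A gene-start peak was called in 24, 24 and 23 of them in silenced replicates 1 to 3 and in 23 in each control library, a difference of 0.667 genes (exact permutation test, two-sided, p = 0.4, adjusted over 3 tests p = 0.9). In all, 23 of the 28 had one in all 6 libraries, against 60.2% of protein-coding genes. They included the effectors BAX and BOK, the apoptosome genes APAF1, CYCS and CASP9, the caspase gene CASP6, the IAP antagonists DIABLO and HTRA2, and the receptor genes FAS and TNFRSF1A. CYCS, which encodes cytochrome c, had the tallest of these peaks, at 161, 149 and 87 in silenced and 162, 172 and 144 in control libraries, named after its values were seen.

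The 5 remaining genes lacked it in some or all libraries. BBC3, the BH3-only gene that encodes PUMA, the inhibitor of apoptosis NAIP and the initiator caspase gene CASP10 had no gene-start peak in any library. NAIP lies among near-identical copies, so its reads may not have been placed and its missing peak is uncertain. BCL2L10, an anti-apoptotic member, had a peak of height 5 in silenced replicate 2 only, and BIRC7 one of height 8 in silenced replicate 1 only. With an FDR of at most 1e-05 the direction turned: 19, 20 and 17 genes had a start peak in silenced replicates 1 to 3 and 21, 22 and 21 in control replicates 1 to 3. The groups did not overlap, and the means of 18.7 and 21.3 differed by −2.67 genes (two-sided exact permutation p = 0.1, the smallest possible). Whole lists held 33511, 36225 and 24487 such peaks in silenced and 35695, 37323 and 36497 in control replicates 1 to 3. The same count of start peaks over all protein-coding genes is not given here. It therefore cannot be told whether the difference is particular to these genes. The lowest count was in silenced replicate 3, the library with the lowest background coverage. The part of coverage in the difference was not tested.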

How the data were processed

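Reads were trimmed with Trimmomatic 0.36, aligned with Bowtie2 2.2.6 to GRCh38, handled with Picard 2.8.2 and bedtools 2.25.0, and peaks were called with MACS2 2.1.1, per the submitters' processing notes, which give no order or settings. The lists are separate for each library. Per the file headers, the authors deposited for each peak a fold enrichment (a ratio over local background), a p-value with an FDR, and a pileup signal, here called height. Every deposited p-value was at most 0.00987, so weaker signal was not listed. Depth in reads is unknown. Background coverage is the lowest value of (height + 1) / fold − 1 in a list. Transposase shift and duplicate removal are not given in the sources used here.

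The 6 lists were merged at an overlap of 1 bp. For regions called in all 6, ranks of fold enrichment within a library became normal scores, tested with limma 3.58.1 in R 4.3.3 (trend, no block, Benjamini-Hochberg over all 37284 regions). The procedure was also run on simulated data with independent noise for each region, which does not show its power in these libraries. Counts per library were compared by two-sided exact permutation, adjusted over 3 tests. Tables were handled with pandas 2.3.3. Gene spans, starts and sequences came from RefSeq, GRCh38.p14; 8 of 10 members and 21 of the 28 wider genes were in its promoter table, and otherwise either span end was used. The rule for named items took all members, the tallest shared region outside each start, regions called in 1 group only, member regions at an unadjusted p under 0.05, and wider genes with a start peak in some or no libraries. The members and lists were chosen with earlier results of these data known. Alternatives were stricter FDR (1e-05) and looser FDR (0.05), height of at least 4, equal list lengths, 50 kb flanks, other start windows, other rank scales, a replicate block and leaving out each library.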

Additional observations from a re-analysis of the deposited data

How the results depend on the processing

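With limma, 0 member regions were called under each alternative run, including the replicate block and each left-out library. Same-numbered libraries did not deviate together in rank scores (correlations −0.00196, 0.00238 and −0.00829). Ranks within a library carry no library-wide shift, so neither these values nor the labels show whether the numbers pair the samples. A replicate block cannot change a difference of means in this balanced design, so the differences stayed at −5 peaks and 0.667 wider genes. The exact sign-flip test, with a smallest possible p of 0.25, gave p = 1 for the peaks and p = 0.5 for the wider genes. Among peaks kept at the FDR limit of 1e-05 the difference was −0.333 members and −2.67 wider genes with a start peak. With starts taken from 250 bases before to 50 after, it was 0 wider genes. With 50 kb flanks 1 region was called in control libraries only. Leaving out 1 library gave −8 to 0 peaks, 0 members, 0.5 to 1 wider genes, 0 to 2 regions called in silenced libraries only and 0 to 5 in control libraries only, since fewer libraries then had to meet the condition.

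Of the 18 named score differences, 166 of 194 values kept their direction and side of the threshold. Among the 194, the values with the replicate block kept their direction by construction. Ranking by p-value turned BCL2 +163.8 kb to 0.0039, the starts of BCL2L11 to −0.0938, BIRC2 to −0.0336, MCL1 to −0.0648 and PMAIP1 to −0.0846, and PMAIP1 +4.8 kb to −0.223. Ranking by height turned these to 0.0475, −0.0992, −0.0204, −0.133, −0.127 and −0.368, and the BAK1 start to 0.0123. Log2 fold enrichment gave 0.0598 at BAK1. Regions called at the stricter FDR gave −0.0201 at BCL2L11 and −0.118 at BIRC2. With 1 library left out the signs turned within −0.0331 to 0.159 (BCL2L11), −0.0720 to 0.266 (BIRC2), −0.262 to 0.101 (BCL2L1), −0.130 to 0.374 (BIRC3), −0.0411 to 0.227 (PMAIP1), −0.192 to 0.0955 (BCL2 +163.8 kb) and −0.379 to 0.513 (PMAIP1 +4.8 kb). The sign held but the value moved by over 1.5 times within −0.742 to −0.138 (BCL2A1), −0.200 to −0.00146 (BAK1), −0.565 to −0.244 (BIRC5), 0.0747 to 0.257 (MCL1), 0.0669 to 0.743 (MCL1, 5.6 kb), −0.356 to −0.0103 (BAK1 +8.6 kb), −0.491 to −0.0567 (BCL2L11 +1.4 kb) and −0.313 to −0.0493 (BIRC2 −5.0 kb). The cause of these changes was not tested. At an unadjusted p under 0.05 limma called 0 to 2 member regions over the alternatives, among them the BIRC5 start in stricter regions (−0.55, unadjusted p = 0.0491) and BCL2 −3.1 kb on log2 fold enrichment (0.57, unadjusted p = 0.0487). Peaks of height 2 or 3 lie at the floor of the lists, so a missing call there is no sign of closed chromatin.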
